A study of Arabidopsis thaliana with 3 samples.

Results

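The 10 genes of ammonium use described here are, in Arabidopsis thaliana, the ammonium transporters AMT1.1, AMT1.2, AMT1.3 and AMT2.1, the cytosolic glutamine synthetases GLN1.1, GLN1.2, GLN1.3 and GLN1.4, and the asparagine synthetases ASN1 and ASN2. Isoform numbers, also written AMT1;1 or GLN1;1, are given with a point. They were taken by their AGI locus identifiers, 10 of 27416 genes with a value in each library, and all 10 were found. The RNA came from whole seedlings of wild-type Col-0 at an age of 3 weeks, kept on MS plates at 23 ± 2 °C in days of 16 h light and 8 h dark. No mutant, treatment or second age was present, so the only group holds 3 libraries, numbered 4, 5 and 6 by the labels. Nothing in the labels says whether these came from separate plates or batches of plants, so their spread may be technical.

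Plants take up ammonium through AMT proteins in the plasma membrane, which work as trimers and are shut by phosphorylation of a threonine in their cytosolic tail. Ammonium is joined to glutamate by glutamine synthetase, which has a plastid form for the ammonium of nitrate reduction and photorespiration and several cytosolic forms, best known from roots, vascular tissue and ageing leaves. Asparagine synthetase then moves the amide nitrogen of glutamine to aspartate. The asparagine formed is a main transport form of nitrogen, and ASN1 is a classic gene of dark and sugar starvation, whereas ASN2 is known to be favoured by light.

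The coding sequences hold the features by which the isoforms are told apart. Among the cytosolic glutamine synthetases, codons 49 and 174 are known to separate isoforms of high affinity for ammonium (GLN1.1 and GLN1.4) from those of low affinity (GLN1.2 and GLN1.3). Each line below runs 5′ to 3′ along the coding strand, from RefSeq's TAIR10.1, with the codon in capitals. The first set shows codon 49, counted from the start codon.
GLN1.1: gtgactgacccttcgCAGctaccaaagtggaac
GLN1.4: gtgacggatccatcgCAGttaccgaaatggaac
GLN1.2: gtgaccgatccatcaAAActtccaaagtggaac
GLN1.3: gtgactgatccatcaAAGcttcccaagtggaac
The second set shows codon 174 of the same genes.
GLN1.1: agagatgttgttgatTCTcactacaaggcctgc
GLN1.4: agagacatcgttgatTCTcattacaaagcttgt
GLN1.2: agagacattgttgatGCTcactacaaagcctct
GLN1.3: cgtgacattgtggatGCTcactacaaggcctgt
At codon 49 the capitals read CAG in GLN1.1 and GLN1.4, AAA in GLN1.2 and AAG in GLN1.3, and at codon 174 they read TCT in the first pair and GCT in the second. Over aligned coding bases the closest pair, GLN1.1 and GLN1.2, was identical at 87.5%, and the other GLN1 pairs at 76.4% to 79.2%.

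For the transporters, the codon of the regulatory threonine is shown, which is number 460 in AMT1.1 and was placed by alignment in AMT1.2 (472) and AMT1.3 (464).
AMT1.1: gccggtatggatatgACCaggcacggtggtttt
AMT1.2: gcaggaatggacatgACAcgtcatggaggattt
AMT1.3: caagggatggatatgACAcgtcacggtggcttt
The AMT1 genes were identical to one another at 67.9% to 77.0% of aligned coding bases, and AMT2.1, of a separate branch, matched them at 41.9% to 43.6%. No 50-base word of any of the 10 genes occurred on the same strand of another annotated transcript. On the opposite strand AMT1.1 alone of the 10 shares such words, with an antisense RNA described with that gene. At 30 bases on the same strand, shared words made up 2.12% in GLN1.1, 1.87% in GLN1.2, 1.41% in AMT1.3 (with AMT1.5), 0.459% in GLN1.3, 0.18% in ASN2 and 0.178% in GLN1.4, and there were none in the other 4 genes.

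All values below are FPKM (fragments per kilobase of gene model, scaled to the reads assigned in each library), as the deposited tables give them. This unit was inferred, since the tables name none, and it corrects for length, so genes can be compared within a library. All 10 genes reached 1 FPKM or more in every library, against 63.0% of 27197 nuclear protein-coding genes, and 9 of 10 lay above the median nuclear gene in every library, against 48.8%. The median of the 10 genes was 18.5 FPKM and that of nuclear genes 4.71 FPKM, a difference of 1.78 on the log2(FPKM + 1) scale (1.70 to 1.80 in single libraries). Set against only those nuclear genes that average at least 1 FPKM, the difference was 0.52. In order, the means fell from GLN1.2 through ASN2, AMT1.1, AMT1.2, AMT2.1, GLN1.3, GLN1.1, ASN1 and AMT1.3 to GLN1.4. Neighbours counted as different where their mean log2 difference exceeded 2 SD and had 1 sign in 3 of 3 libraries. This SD is the spread between the 3 libraries, which may be technical. Passing the rule therefore does not show a difference beyond the variation between plants. By this rule AMT1.2 and AMT2.1 could not be separated (0.11 ± 0.12), nor could AMT2.1 and GLN1.3 (0.02 ± 0.14), and every other neighbouring pair was. Since the RNA is from whole seedlings, fewer cells of a type and less RNA per cell cannot be told apart for any of these genes.

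**Figure D1:**
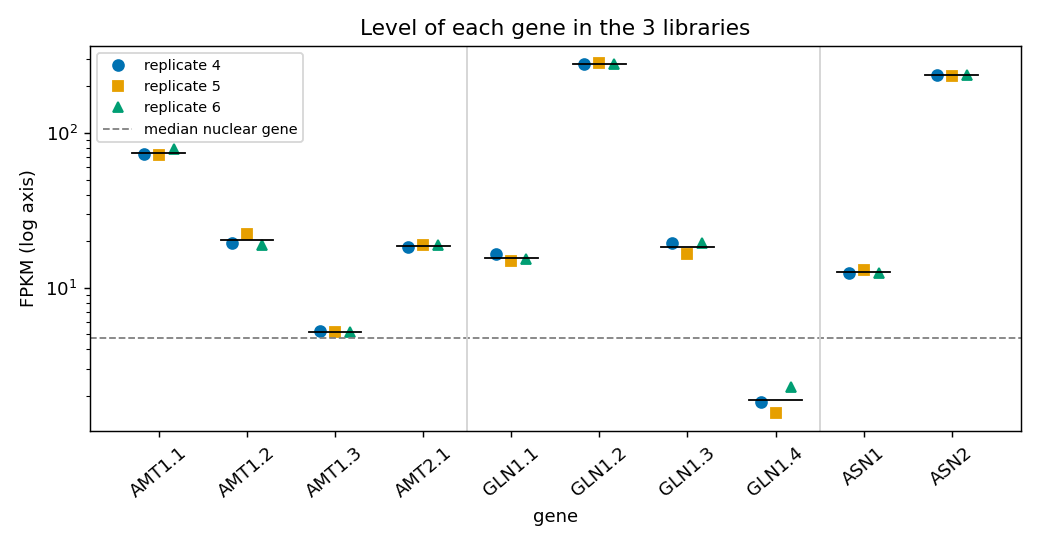
FPKM of each of the 10 genes in the 3 libraries on a log axis, with the mean as a black line and the median nuclear gene as a dashed line. GLN1.2 stands at 278 to 281 FPKM and ASN2 at 235 to 238 FPKM, AMT1.1 follows at 72.3 to 78.3 FPKM, and GLN1.4 is below the dashed line in every library.

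Among the transporters, AMT1.1 stood above the others. AMT1.1 (AT4G13510, chromosome 4, 7858183 to 7860288, TAIR10.1), a high-affinity transporter of root and shoot, had 73.4, 72.3 and 78.3 FPKM in replicates 4, 5 and 6. Its mean of 74.7 ± 3.17 FPKM (SD, n = 3) was above that of 94.1% of nuclear genes. Replicate 6 was its highest library. The annotation places a long non-coding RNA, AT4G13505, on the opposite strand over 1709 bases of this gene, covering 98.4% of its 50-base words. That locus has no value in the libraries and was not analysed here. The libraries preserved strand, but how strand was treated in counting is not given in the sources used here. From the deposited values, reads of AMT1.1 and of its antisense partner therefore cannot be told apart.

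AMT1.2 (AT1G64780, chromosome 1, 24060640 to 24062804), known from the root endodermis and cortex, had 19.5, 22.3 and 18.9 FPKM, a mean of 20.2 ± 1.80 FPKM. AMT2.1 (AT2G38290, chromosome 2, 16039430 to 16042521), linked to transfer of ammonium from root to shoot, had 18.4, 18.8 and 18.9 FPKM, a mean of 18.7 ± 0.256 FPKM. AMT1.3 (AT3G24300, chromosome 3, 8805519 to 8807460), a partner of AMT1.1 in uptake at the root surface, had 5.28, 5.17 and 5.18 FPKM, a mean of 5.21 ± 0.063 FPKM. The values of AMT1.2 were above those of AMT2.1 in each library, by as little as 0.0023 on the log2 scale in replicate 6. With the longest RefSeq transcript as the length, AMT1.2 minus AMT2.1 averaged 0.0064 ± 0.12 and was above 0 in only 1 of 3 libraries. AMT1.3 was the lowest listed transporter in every library, with no overlap with the others.

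Within libraries AMT1.1 exceeded AMT1.3 by 3.61 ± 0.066 on the log2(FPKM + 1) scale, a ratio of 14.3 ± 0.686 in FPKM. It exceeded AMT1.2 by 1.84 ± 0.17 and AMT2.1 by 1.94 ± 0.053, each in 3 of 3 libraries. The 3 AMT1 genes summed to 100.1 ± 2.14 FPKM, above AMT2.1 by 2.36 ± 0.016, or 5.36 ± 0.058 times its level. AMT1.1 thus made up 62.8 ± 1.78% of the FPKM of the listed transporters, AMT1.2 17.0 ± 1.62%, AMT2.1 15.7 ± 0.142% and AMT1.3 4.39 ± 0.134%. With 3 libraries the smallest p that an exact two-sided permutation of signs allows is 0.25, so neither these nor the later differences were tested.

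Several of these transporters are known from roots, and root markers were mostly low in the same libraries. Of 9 root markers, 4 reached 1 FPKM in every library, against 63.0% of nuclear genes. The summed level of the 9 markers ran from 1216 to 1222 FPKM, nearly all from PYK10, a glucosidase of root and hypocotyl ER bodies (1196 ± 3.50 FPKM). The endodermal genes CASP1 and CASP2, which place the Casparian strip, had 4.27 ± 0.733 and 3.08 ± 0.489 FPKM. SCR, also of the endodermis and of leaf bundle sheath, had 14.6 ± 0.066 FPKM. The root hair genes COBL9 (0.070 ± 0.047 FPKM) and RHD6 (0.156 ± 0.042 FPKM) were near 0, and EXPA7 was listed at 0 in replicates 4 and 6. The 4 markers of green tissue, from the antenna protein gene LHCB1.3 (13523 ± 137 FPKM) down to SBPASE of the Calvin cycle (493 ± 3.17 FPKM), summed to 27648 to 28094 FPKM, SUC2 and AHA3 of phloem companion cells to 39.8 to 41.9 FPKM, and KAT1 and FAMA of guard cells to 22.3 to 23.9 FPKM. The part of tissue make-up in the transporter levels was not tested.

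Of the cytosolic glutamine synthetases, 1 isoform held most of the RNA. GLN1.2 (AT1G66200, chromosome 1, 24655115 to 24657703), a low-affinity isoform known from leaves and from roots fed with ammonium, had 278, 281 and 278 FPKM. Its mean of 279 ± 1.82 FPKM was above that of 98.7% of nuclear genes. GLN1.3 (AT3G17820, chromosome 3, 6097201 to 6099595), a low-affinity isoform of vascular tissue, had 19.4, 16.4 and 19.4 FPKM, a mean of 18.4 ± 1.73 FPKM, with replicate 5 below the others.

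GLN1.1 (AT5G37600, chromosome 5, 14933286 to 14935885), a high-affinity isoform known from the root surface, had 16.6, 15.0 and 15.3 FPKM, a mean of 15.7 ± 0.861 FPKM. GLN1.4 (AT5G16570, chromosome 5, 5421589 to 5424749), the other high-affinity isoform, had 1.82, 1.54 and 2.30 FPKM, a mean of 1.89 ± 0.381 FPKM. GLN1.4 was the lowest of the 10 genes in every library, and it rested on 46, 39 and 58 reads.

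GLN1.2 exceeded GLN1.3 by 3.86 ± 0.14 on the log2(FPKM + 1) scale, GLN1.1 by 4.07 ± 0.080 and GLN1.4 by 6.61 ± 0.20, in 3 of 3 libraries. In FPKM the ratio to GLN1.1 was 17.9 ± 1.04, although these genes are the closest pair by sequence. GLN1.3 exceeded GLN1.1 by 0.22 ± 0.098, just over 2 SD. With the longest RefSeq transcript as the length, this difference was 0.10 ± 0.097 and no longer passed. The high-affinity pair GLN1.1 and GLN1.4, with CAG and TCT in the sequences above, summed to 17.5 ± 0.959 FPKM, and the low-affinity pair to 298 ± 0.111 FPKM. On the log2 scale the first sum minus the second was -4.01 ± 0.075, negative in 3 of 3 libraries, and the low-affinity pair had 17.0 ± 0.942 times the FPKM of the other. GLN1.2 alone held 88.6 ± 0.806% of the GLN1 sum, GLN1.3 5.84 ± 0.535%, GLN1.1 4.96 ± 0.259% and GLN1.4 0.598 ± 0.120%. RNA levels do not measure the enzyme or its activity.

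The plastid isoform GLN2 lay above all cytosolic ones together. The 4 GLN1 genes summed to 316, 314 and 315 FPKM in replicates 4, 5 and 6, a mean of 315 ± 0.909 FPKM, and GLN2 had 1219 ± 4.06 FPKM. The log2 difference of the GLN1 sum from GLN2 was -1.95 ± 0.0045, negative in 3 of 3 libraries, and GLN2 was 3.86 ± 0.012 times the sum.

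**Figure D2:**
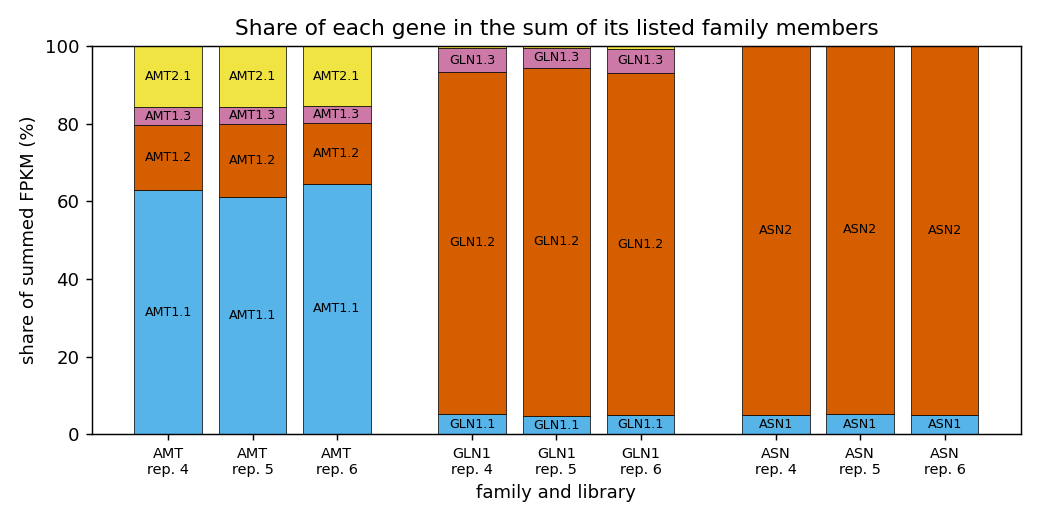
Stacked bars give the share of each gene in the summed FPKM of its listed family members, in percent, for each family and library, with GLN1.4 (0.598% on average) as the unlabelled sliver at the top. AMT1.1 takes 61.0% to 64.6% of the transporter sum, GLN1.2 takes 88.0% to 89.5% of the GLN1 sum, and ASN2 takes 94.8% to 95.0% of the ASN sum.

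Of the asparagine synthetases, ASN2 was far above ASN1 in every library. ASN2 (AT5G65010, chromosome 5, 25969035 to 25972575) had 237, 235 and 238 FPKM, a mean of 237 ± 1.59 FPKM, above that of 98.5% of nuclear genes. ASN1 (AT3G47340, also DIN6, chromosome 3, 17437840 to 17441431) had 12.5, 13.0 and 12.5 FPKM, a mean of 12.7 ± 0.259 FPKM. ASN2 exceeded ASN1 by 4.12 ± 0.037 on the log2(FPKM + 1) scale in 3 of 3 libraries, a ratio of 18.7 ± 0.502 in FPKM, and held 94.9 ± 0.131% of their sum. ASN2 was in turn below GLN1.2 by a small step, 0.24 ± 0.019 on the log2 scale in 3 of 3 libraries. The gene model behind the values had 81.6% of the length of the longest RefSeq transcript for GLN1.2 and 93.1% for ASN2. This step depends on those lengths and was not recomputed with the longest transcripts. ASN1 overlaps AT3G47341 on the opposite strand by 11 bases.

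The 250 bases before the annotated start of ASN1 and of ASN2 are shown because these genes had contrasting levels and are known for contrasting responses to light and dark. They run 5′ to 3′ along the strand of each gene, from RefSeq's TAIR10.1. Capitals mark CACGTG (the G-box, bound by bZIP factors), ACTCAT (also bound by bZIP factors) and GATAAG (bound by GATA and related MYB factors), each searched on both strands. ASN1 lies at chr3:17441432-17441681 on the minus strand, and ASN2 at chr5:25968785-25969034 on the plus strand.
ASN1: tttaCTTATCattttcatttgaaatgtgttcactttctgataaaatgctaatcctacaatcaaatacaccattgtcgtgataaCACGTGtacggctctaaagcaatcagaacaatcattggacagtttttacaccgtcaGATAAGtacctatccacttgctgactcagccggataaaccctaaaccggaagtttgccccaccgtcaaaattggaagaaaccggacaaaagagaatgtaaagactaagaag
ASN2: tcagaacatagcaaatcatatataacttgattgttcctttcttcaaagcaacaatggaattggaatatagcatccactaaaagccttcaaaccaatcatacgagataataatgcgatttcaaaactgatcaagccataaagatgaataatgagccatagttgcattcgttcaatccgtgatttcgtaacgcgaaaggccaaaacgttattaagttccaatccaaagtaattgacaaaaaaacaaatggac
The window of ASN1 holds a G-box and GATAAG on both strands, and these letters are not in the window of ASN2. A G-box stands in 6.59% of 26709 windows of the same length before protein-coding genes, and in that of ASN1 alone among the 10 genes. ACTCAT stands in 12.3% of all windows and in those of AMT2.1 and GLN1.3. GATAAG stands in 12.3% of all windows and in those of AMT1.1, AMT2.1 and ASN1. None of the motifs overlap one another in ASN1, and a match of letters does not show a bound site.

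**Figure D3:**
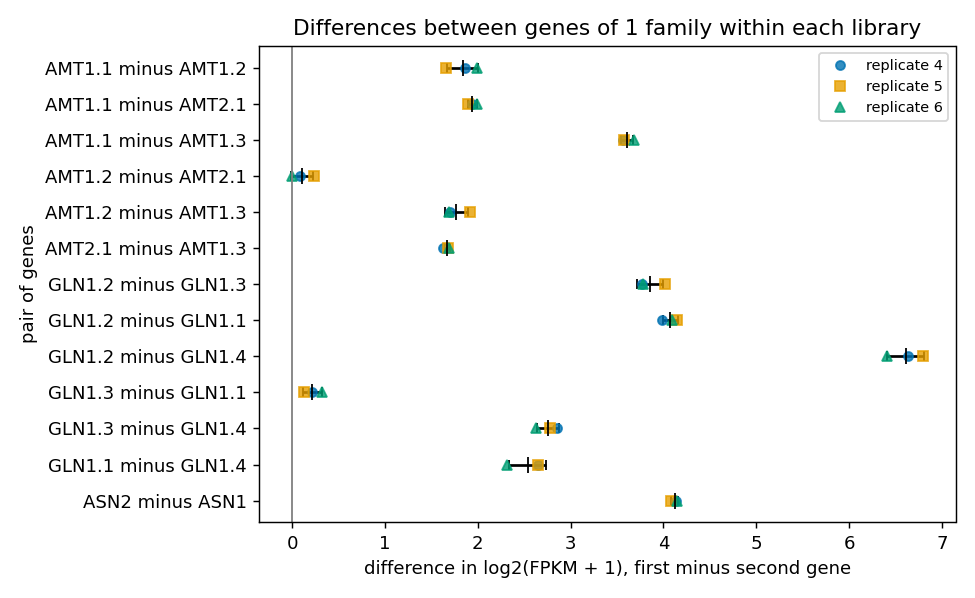
Differences in log2(FPKM + 1) between genes of the same family (first minus second), by library, with the mean as a vertical tick and bars of 1 SD over 3 libraries. All points lie above 0. The points of AMT1.2 minus AMT2.1 come nearest to it, and those of GLN1.2 minus GLN1.4 lie farthest, at 6.40 to 6.79.

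The reads behind the levels set how firmly each can be stated. Whole reads could be recovered from the deposited values, and library totals were 19921241, 19905762 and 19892527 reads. Over the 3 libraries together, the 10 genes had from 143 reads (GLN1.4) and 547 reads (AMT1.3) to 22574 reads (GLN1.2) and 29250 reads (ASN2). The variance of reads over their mean, which is near 1 for pure counting error, was above 4 in 3 of 10 genes, against 7.01% of 15745 nuclear genes with a mean of 30 reads or more and a clear length. The limit of 4 was chosen after the values were seen, so the count cannot be read as an excess over that share. Over 3 libraries the ratio also ranges widely around 1 by counting error alone.

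These were AMT1.2 with 722, 825 and 700 reads (ratio 5.95), AMT1.1 with 2537, 2500 and 2703 reads (ratio 4.53) and GLN1.3 with 519, 438 and 517 reads (ratio 4.34). Each ratio rested on 1 library: it was 0.340 for AMT1.2 and 0.0039 for GLN1.3 without replicate 5, and 0.272 for AMT1.1 without replicate 6. With 3 values, leaving out the most distant one always lowers the variance. Without replicate 4 the ratios were 10.2 for AMT1.2, 7.92 for AMT1.1 and 6.54 for GLN1.3. Without replicate 6 they were 6.86 for AMT1.2 and 6.86 for GLN1.3, and AMT1.1 had 5.26 without replicate 5. Replicate 5 was the highest library for AMT1.2 and the lowest for GLN1.3. Among nuclear genes with 0.5 to 2 times as many reads, 2.08% had a higher ratio than AMT1.2, 6.03% than AMT1.1 and 5.12% than GLN1.3. AMT1.3, with 185, 181 and 181 reads, had the lowest ratio of the 10 genes, 0.029. GLN1.2 (0.322) and ASN2 (0.434) also varied by less than the typical gene of their depth, whose median ratio was 1.26 and 1.36. These low ratios also moved with single libraries, to 0.549 and 0.691 without replicate 4 and to 0.011 and 0.0025 without replicate 5, and that of AMT1.3 to 0 without replicate 4.

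**Figure D4:**
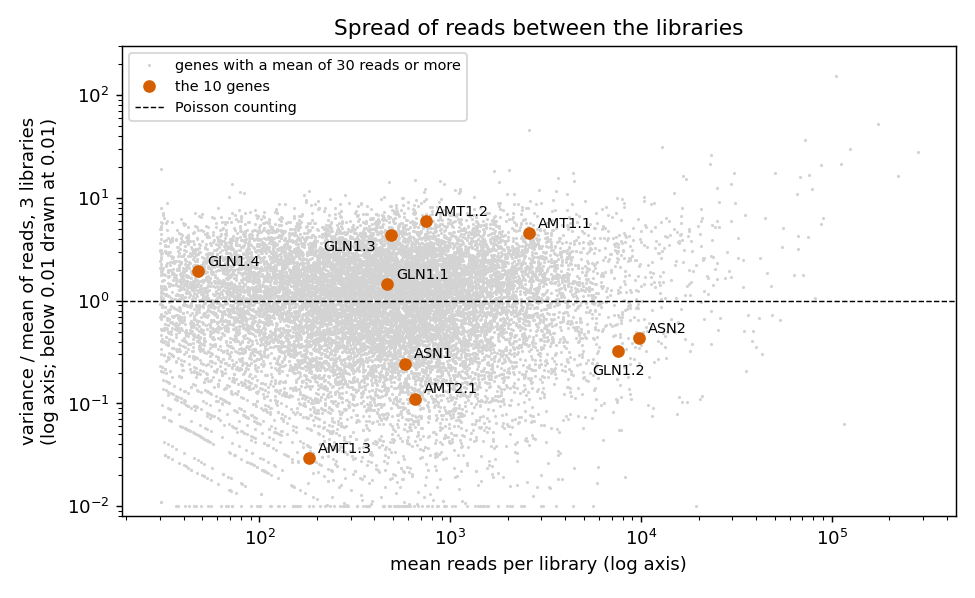
Variance over mean of reads in the 3 libraries against mean reads per library, both on log axes, for genes with a mean of 30 reads or more (grey) and the 10 genes (orange), and the dashed line marks counting error alone. AMT1.2, AMT1.1 and GLN1.3 lie highest among the 10, at 4.34 to 5.95, and AMT1.3 lowest, at 0.029.

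Of 42 other listed genes of the pathway, 33 had 1 FPKM or more in every library, against 63.0% of nuclear genes, and 31 lay above the median nuclear gene, against 48.8%. Among the other 9 genes, 5 were listed at 0, from which no level is drawn. Of the other family members only ASN3, another asparagine synthetase, passed 1 FPKM, with 8.19 ± 0.486 FPKM. AMT1.4, known from pollen, had 0.763 ± 0.132 FPKM, and AMT1.5 and GLN1.5 were listed at 0 in every library. With ASN3 added, ASN2 held 91.9 ± 0.316% of the family, and with AMT1.4 added AMT1.1 held 62.4 ± 1.84%.

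Genes of ammonium supply and plastid assimilation lay on both sides of GLN1.2 and ASN2. All 3 genes of nitrate reduction were above the median nuclear gene, from the nitrate reductase NIA2 (840 ± 12.2 FPKM) and the nitrite reductase NIR1 (205 ± 3.48 FPKM) down to NIA1 (154 ± 2.62 FPKM). All 3 genes of photorespiratory ammonium release were too, from the glycine decarboxylase T-protein GLDT (920 ± 6.43 FPKM) and the P-protein GLDP1 (609 ± 4.92 FPKM) to GLDP2 (169 ± 2.93 FPKM). That median was passed in every library by 48.8% of nuclear genes. The glutamate synthases, which use glutamine to make glutamate, ran from the ferredoxin-dependent GLU1 (366 ± 1.08 FPKM) through the NADH-dependent GLT1 (139 ± 0.183 FPKM) to GLU2 (11.9 ± 0.383 FPKM). Of the glutamate dehydrogenases, which can release ammonium again, GDH2 had 50.2 ± 2.61 FPKM, GDH1 25.9 ± 0.440 FPKM and GDH3 0.306 ± 0.059 FPKM. In the urea list the urease URE had 7.64 ± 0.302 FPKM and the urea transporter DUR3 5.24 ± 0.151 FPKM.

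Genes around asparagine were detected in 6 of 7 cases, against 63.0% of all nuclear genes. The plastid aspartate aminotransferase ASP5 was highest at 71.3 ± 2.60 FPKM. The asparaginase ASPGA1 had 45.0 ± 0.633 FPKM, whereas the potassium-dependent ASPGB1 had 0.536 ± 0.060 FPKM. Of the 7 other dark-inducible genes, 6 were detected, against the same 63.0%. Of the same 7 genes, 4 lay above the median nuclear gene, a share near the 48.8% of all nuclear genes. They ran from DIN10 (200 ± 2.68 FPKM), a raffinose synthase homolog, and DIN1 (49.6 ± 1.5 FPKM) down to DIN11 (0.116 ± 0.116 FPKM). ASN1, at 12.7 FPKM, was close to DIN3 (13.2 ± 0.220 FPKM), a subunit of branched-chain ketoacid dehydrogenase. The time of harvest is not given in the sources used here.

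Of 9 regulators, 6 were detected, a share near the 63.0% of all nuclear genes, and the other 3 were listed at 0. CIPK23, a kinase that phosphorylates AMT1 transporters, was highest at 34.0 ± 1.29 FPKM, and its calcium sensor CBL1 had 7.48 ± 0.225 FPKM. The PII protein GLB1, a plastid nitrogen sensor, had 28.3 ± 1.42 FPKM, the nitrate response factor NLP7 23.5 ± 0.472 FPKM, and the energy-sensing kinases KIN10 and KIN11 25.2 ± 1.27 and 16.2 ± 0.254 FPKM. The factors bZIP1, bZIP11 and bZIP53, which act on ASN1, were each listed at 0 in every library. The reason for these zeros was not tested, so no level is drawn from them.

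**Figure D5:**
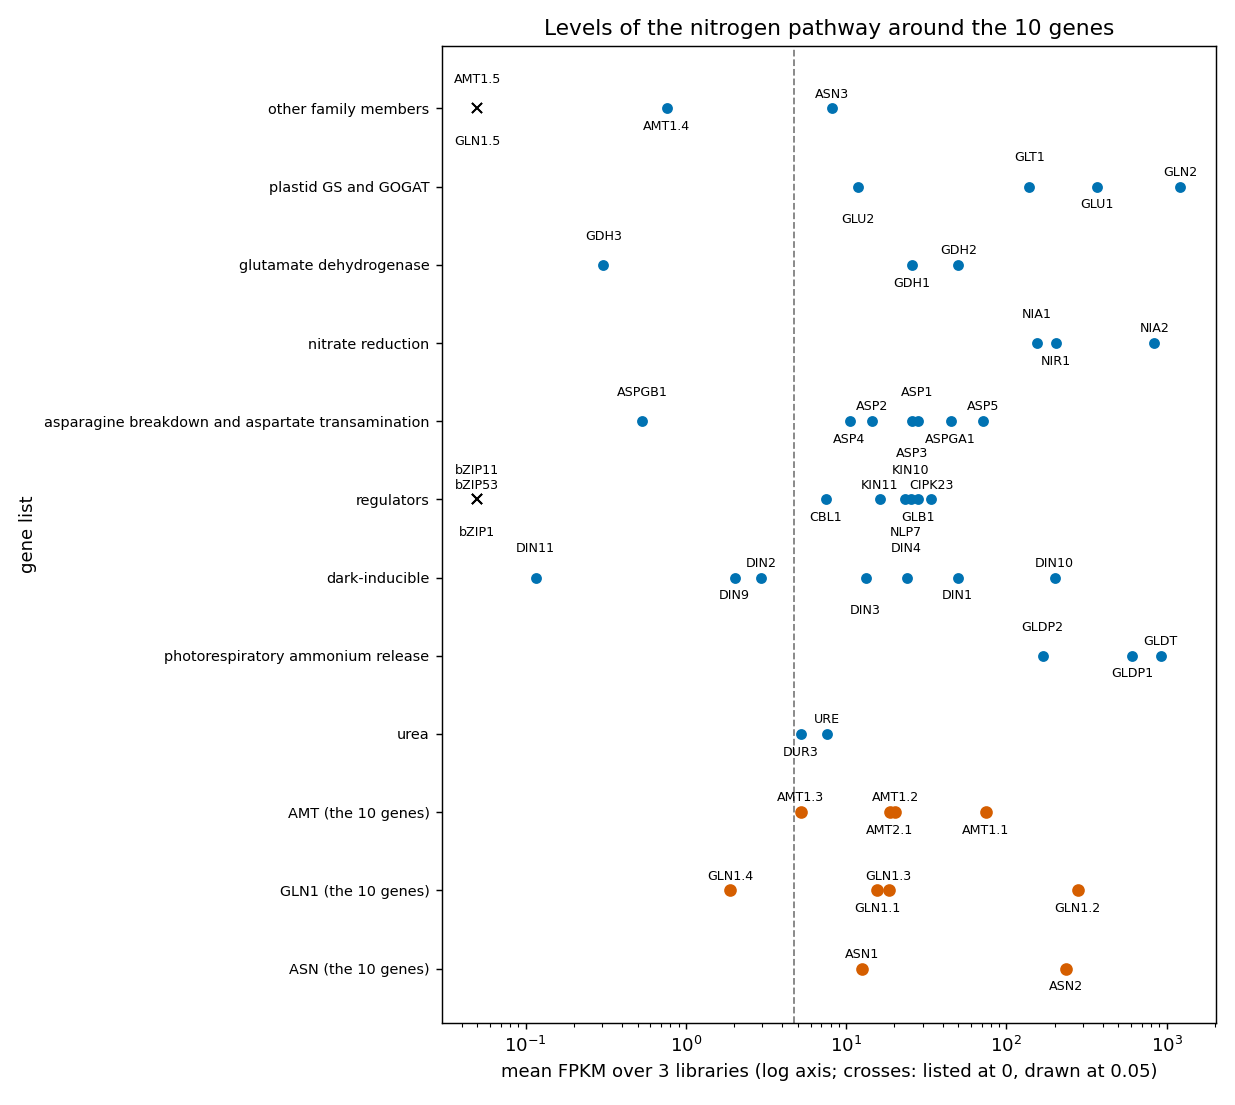
Mean FPKM over 3 libraries on a log axis for the 42 pathway genes by list (blue) and the 10 genes by family (orange), with the median nuclear gene as a dashed line and crosses for genes listed at 0. The genes of nitrate reduction and photorespiratory ammonium release lie at 154 to 920 FPKM, and GLN1.2 and ASN2 lie among them.

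With 1 group, genes can be alike only in level and in small differences between libraries. Nearest to AMT1.1 by Euclidean distance of log2(FPKM + 1) over 3 libraries were PME5 (AT5G47500, 74.0 ± 3.00 FPKM, distance 0.021) and ABCG12 (AT1G51500, 74.6 ± 2.02 FPKM, distance 0.031). Nearest to GLN1.2 were RPL27AB (AT1G23290, 281 ± 0.273 FPKM, distance 0.016) and AT4G32340 (276 ± 2.40 FPKM, distance 0.031). Nearest to ASN2 were CYP83A1 (AT4G13770, 236 ± 0.880 FPKM, distance 0.013) and AT1G04480 (236 ± 0.25 FPKM, distance 0.015).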

How the data were processed

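RNA of 3 wild-type libraries was analysed. Per the labels' protocols, strand-preserving libraries were made from rRNA-depleted total RNA and read on a HiSeq instrument. The deposited values, 1 per gene and library, are treated as FPKM computed by the authors, because the submitters' processing notes name Cufflinks 2.1.1, with TopHat2 2.0.9 and the build TAIR10. RPKM is equally possible. The treatment of strand and of multiply mapped reads in counting is not stated in those notes.

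Library totals were found from values at annotated lengths. Reads were accepted where exactly 1 length from 75% of the shortest to 115% of the longest RefSeq transcript gave whole numbers in all libraries (tolerance 0.0001 reads plus 1e-09 of the reads), in 18619 of 20669 genes above 0 throughout, all 10 genes included. On simulated data all 3 totals and 100.0% of 2774 clear genes came back exactly. Counting limits cover counting error only.

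Differences are on log2(FPKM + 1), which understates those of low genes, as mean ± SD over 3 libraries. Sequences, names and coordinates are from RefSeq's TAIR10.1; 26719 identifiers matched its gene table. The members and lists were chosen with earlier results of these data known. All members and the highest and lowest gene of each list are named, with the 2 nearest genes of each family's top member. Python 3.11.15, pandas 2.3.3 and Biopython 1.88 were used.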

Additional observations from a re-analysis of the deposited data

How the results depend on the processing

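All 96 alternative values of the 16 pairs and contrasts kept the sign of the reported value. Only the change to the longest RefSeq transcript as length could have reversed one, since each had 1 sign in 3 of 3 libraries. With that length, AMT1.2 minus AMT2.1 was 0.0064 ± 0.12 and above 0 in only 1 of 3 libraries. With a pseudocount of 0.1, the AMT1 sum minus AMT2.1 was 2.42, AMT1.1 minus AMT1.3 was 3.81, ASN2 minus ASN1 was 4.21, and the 10 genes lay 1.96 above the median nuclear gene. Rescaling each library to the same summed FPKM moved the AMT1 sum minus AMT2.1 to 2.38. With the longest RefSeq transcript as length, chosen after seeing the data, AMT1 sum minus AMT2.1 was 2.42, AMT1.1 minus AMT1.3 was 3.73, GLN1 sum minus GLN2 was -2.09, the high-affinity minus the low-affinity GLN1 pair was -3.83, and GLN1.2 minus GLN1.1 was 3.86. The list lay 2.16 above nuclear genes by means, and 0.52 against genes at 1 FPKM or more. Leaving out each library in turn gave 2.35 to 2.37 for the AMT1 sum, 3.57 to 3.63 for AMT1.1 minus AMT1.3, 4.04 to 4.12 for GLN1.2 minus GLN1.1, -4.05 to -3.97 for the affinity pairs, -1.95 to -1.94 for GLN1 minus GLN2, 4.11 to 4.14 for ASN2 minus ASN1, and 1.75 to 1.81 for the list. Detected genes numbered 10, or 9 at 2 FPKM, and in the pathway 32 to 34. No paired analysis was possible because there is 1 group. Depth limits GLN1.4 most, with 143 reads.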

Other observations

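The zeros of the bZIP factors extend to their whole subgroup, which was looked at after the values of the first 3 were seen. All 5 genes of the S1 group of bZIP factors (bZIP1, bZIP2, bZIP11, bZIP44 and bZIP53) were listed at 0 in each of the 3 libraries, whereas 18.2% of nuclear protein-coding genes were at 0 throughout. The cause was not tested.

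GLN1.2 and GLN1.3 deviated in opposite directions in replicate 5, where GLN1.2 was highest (281 FPKM) and GLN1.3 lowest (16.4 FPKM). Their SDs were 1.82 and 1.73 FPKM, and that of their sum, 298 FPKM, was 0.111 FPKM. The variance of reads over their mean was 0.322 for GLN1.2, below the value near 1 of pure counting error. The deviation of GLN1.2 can therefore not be told from counting error. No such ratio was computed for the sum, and its small SD was not set against counting error. The opposite deviations were noticed after the values were seen, rest on 3 libraries and were not tested.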
